A study of Mus musculus with 2 samples.

Results

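The 10 transcription factor genes described here were Hoxa5, Hoxa7, Hoxa9, Hoxa10, Meis1, Runx1, Etv6, Erg, Fli1 and Myb. They were chosen by name, as factors of the HOXA, MEIS, RUNX, ETS and MYB families with known roles in leukemia and blood stem cells, with no measured value in the rule, though earlier results of these data were known when they were chosen. All 10 were found among the 23284 gene symbols measured. mRNA was measured by RNA-seq in leukemic stem cells (LSCs) from mice with a BCR-ABL-driven chronic myeloid leukemia (CML), with 1 library of WT LSCs and 1 of STAP-1 KO LSCs, called KO LSCs below. Donor cells of both libraries were C57BL/6J LSK cells (cells without lineage markers that carry Sca-1 and c-Kit), which had been infected with a retrovirus for p210 BCR-ABL and green fluorescent protein (GFP) and given, with normal marrow cells of the recipient strain, to C57BL/6SJL mice after lethal irradiation. The donors of one library lacked STAP-1, a signalling adaptor protein, and those of the other were WT, while BCR-ABL was present in both. Mice were 8 to 14 weeks old, and GFP+ CD45.2+ LSK cells were sorted from the recipients at day 11 after transplantation. The number of mice behind each library is not given in the sources used here.

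HOXA proteins are homeodomain factors that are active in blood stem and progenitor cells and are shut off as these cells mature. They bind DNA together with MEIS1 and PBX proteins, and overexpression of HOXA9 with MEIS1 is a classical way to make acute myeloid leukemia in mice. RUNX1 and the ETS factors ERG and FLI1 are needed to form or keep blood stem cells, ETV6 is an ETS repressor needed by adult marrow stem cells, and MYB drives the proliferation of immature progenitors. The comparison asked how the mRNA of these factors differed between WT and STAP-1 KO LSCs.

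Levels are FPKM, the reads of a gene per kilobase of transcript scaled to the reads of the library, so that they can be set side by side between genes. As each genotype had 1 library, differences could not be checked against replicates and were not tested. The FPKM values fall on steps at low levels, from which an effective depth of 7500000 reads for the WT library and 10470000 reads for the KO library was estimated. On a transcript of 2000 bases, 3 reads were worth 0.224 FPKM in WT LSCs and 0.16 FPKM in KO LSCs. Reads given below are estimates from these depths. Intervals are exact 95% intervals for their counting error, which leaves out the spread between mice and between libraries. For genes with several RefSeq transcripts the longest was used, and with the shortest the estimates fall, from 965 to 303 WT reads for Runx1 and from 36.2 to 18.9 KO reads for Hoxa10, with wider intervals. Stap1 itself stood at 62.0 FPKM in WT LSCs and 0.309 FPKM in KO LSCs.

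The 4 HOXA genes lie in 1 cluster on the minus strand of chromosome 6 (mm10, which is GRCm38). Hoxa5 spans chr6:52201754-52204587, Hoxa7 chr6:52214491-52221854, Hoxa9 chr6:52223100-52231089 and Hoxa10 chr6:52231197-52240854. Meis1 lies on the minus strand at chr11:18879817-19018985. The 250 bases before the RefSeq start are shown for Hoxa7 and Hoxa9, neighbours that were both higher in KO LSCs, and for Meis1, whose product binds DNA with theirs and whose window held the most motif matches. The sequences are those of RefSeq on GRCm38.p6, written 5′ to 3′ on the strand of the gene. Capitals mark the motif matches.
Hoxa7, chr6:52218574-52218823, minus strand: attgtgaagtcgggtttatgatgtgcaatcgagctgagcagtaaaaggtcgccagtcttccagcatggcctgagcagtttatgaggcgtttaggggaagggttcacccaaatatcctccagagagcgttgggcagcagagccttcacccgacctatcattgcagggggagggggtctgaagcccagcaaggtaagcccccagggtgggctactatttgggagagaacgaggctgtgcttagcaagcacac
Hoxa9, chr6:52227371-52227620, minus strand: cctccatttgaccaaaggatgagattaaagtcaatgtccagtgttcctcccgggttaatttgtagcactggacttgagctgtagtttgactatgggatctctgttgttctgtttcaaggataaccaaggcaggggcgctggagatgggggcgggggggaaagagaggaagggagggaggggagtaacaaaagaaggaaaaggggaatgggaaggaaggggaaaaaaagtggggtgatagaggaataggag
Meis1, chr11:19018970-19019219, minus strand: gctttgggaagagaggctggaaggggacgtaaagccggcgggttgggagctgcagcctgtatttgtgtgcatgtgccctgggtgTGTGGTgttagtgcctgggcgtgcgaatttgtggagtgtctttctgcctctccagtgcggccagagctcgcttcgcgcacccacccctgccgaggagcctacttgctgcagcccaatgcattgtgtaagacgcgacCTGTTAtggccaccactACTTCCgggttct

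Short core motifs of these same families were searched on both strands in such windows, which were at hand for 9 of the 10 genes. The letters were GGAAGT for ETS, TGTGGT for RUNX, TAACNG for MYB, TGATTNAT for a HOX and PBX pair and TGACAG for MEIS. Among all 32851 windows the share with a match was 19.7% for ETS, 14% for RUNX, 19.8% for MYB, 2.82% for the HOX and PBX pair and 15.9% for MEIS. The Meis1 window held 1 RUNX, 1 MYB and 1 ETS match, the latter pair on the opposite strand. The windows of Hoxa5, Hoxa7, Hoxa9, Etv6 and Myb held none of the 5 motifs. Of the windows before the starts of Hoxa10, Runx1 and Erg, some held no match and the others held 1 of the motifs, an ETS match for Hoxa10, a MYB match for Runx1 and MEIS or MYB matches for Erg. The windows also differed in base composition, with 40 CG pairs and 81.2% G or C before Myb, 28 CG pairs before Hoxa5, 7 before Hoxa7, 3 before Hoxa9 and 2 before 1 of the Runx1 and 1 of the Erg starts. A match is a description of these letters and not of binding.

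Among the members with at least 0.1 FPKM in both libraries, Hoxa7, Hoxa9 and Hoxa10 differed most. All 4 HOXA genes were higher in KO LSCs. Meis1, which codes for their DNA binding partner, was far more abundant and differed by less than 1.5-fold before any correction for transcript length. Hoxa7, Hoxa9 and Hoxa10 were at least 2-fold higher in KO LSCs and had at least 0.1 FPKM in both libraries, as did 12.3% of the 12507 genes above that floor and 18.9% of the 1698 genes that averaged 0.5 to 2 FPKM, the range of these 3. At least 2-fold lower were 22.9% of the genes above the floor. Hoxa7 was at 0.153 FPKM in WT LSCs and 2.96 FPKM in KO LSCs, from about 2.07 and 55.8 reads. Its level was 19.3-fold higher (interval 5.30 to 170), a log2 ratio of 3.60. The log2 ratios given here are log2((STAP-1 KO + 0.1)/(WT + 0.1)) of FPKM values, which understates the change of low genes. The WT value of Hoxa7 rests on so few reads that the size of its difference is loosely held.

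Hoxa9, the member most used to model HOX-driven leukemia, was at 0.452 FPKM in WT LSCs and 2.73 FPKM in KO LSCs. With about 10.2 and 86.3 reads it was the best counted of the 4, and it was 6.04-fold higher in KO LSCs (interval 3.19 to 13.3; log2 ratio 2.36). Hoxa10, a neighbour of Hoxa9 with a similar role in progenitors, was at 0.170 FPKM in WT LSCs and 1.47 FPKM in KO LSCs. About 3 and 36.2 reads stood behind these values, and the ratio was 8.64 (interval 2.72 to 43.6; log2 ratio 2.54). Hoxa5, which favours myeloid over erythroid progenitors, was listed at 0 in WT LSCs and at 0.572 FPKM in KO LSCs, about 10 reads. Set against 3 reads in WT LSCs, or 0.24 FPKM, it was at least 2.39-fold higher, and the exact interval of the ratio, which allows more WT reads, began at 1.61. Its log2 ratio of 2.75 depends on the pseudocount and is no bound. The counting intervals of the WT and STAP-1 KO levels did not overlap for Hoxa7, Hoxa9 and Hoxa10. The same held, with the KO level higher, for 30.6% of the 12284 genes above the floor with a known transcript length and for 11.8% of the 1648 of them that averaged 0.5 to 2 FPKM. The interval of a count of 0 for Hoxa5 reached 0.295 FPKM and overlapped the STAP-1 KO interval, which began at 0.274 FPKM. Summed over the 4 genes, about 15 WT reads stood against 188 STAP-1 KO reads, which is 8.98-fold more per depth (interval 5.31 to 16.4).

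**Figure D1:**
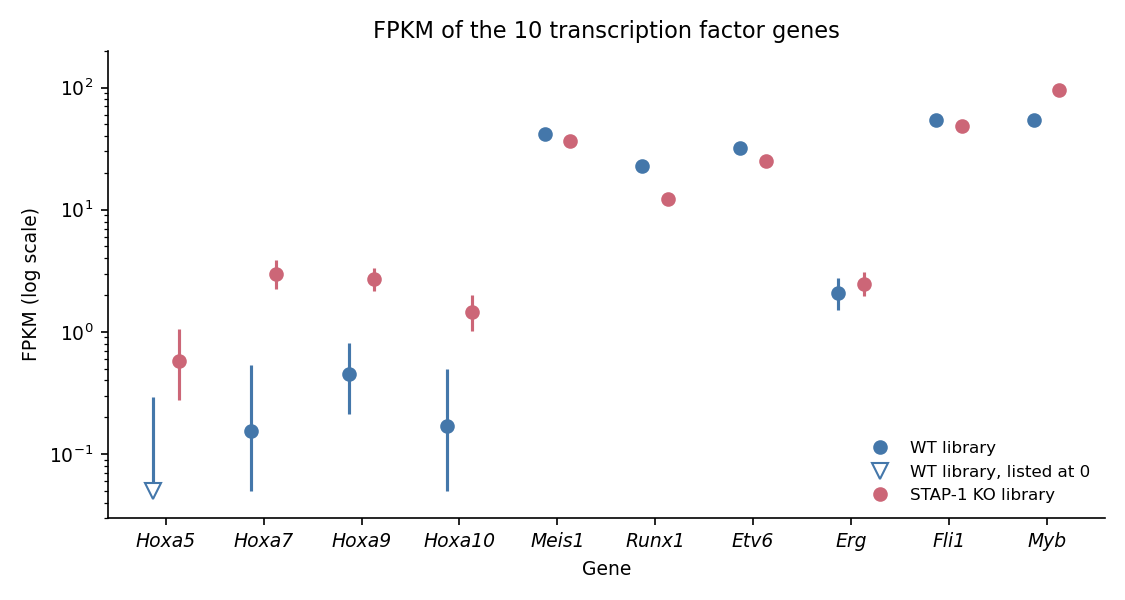
FPKM on a log axis of each gene in WT LSCs (blue) and KO LSCs (red), with vertical lines for the exact 95% counting interval, cut at 0.05 FPKM and often shorter than the point. The open triangle marks Hoxa5, listed at 0 in WT LSCs; the HOXA genes lie below 0.5 FPKM in WT LSCs and between 0.572 and 2.96 FPKM in KO LSCs, whereas Meis1, Etv6, Fli1 and Myb lie above 20 FPKM in both.

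Even in KO LSCs these were low levels. The highest, Hoxa7, stood at the 38.5th percentile of the genes above 0 in that library, and Meis1 at the 78.2nd percentile. Meis1 exceeded Hoxa9 92.3-fold in WT LSCs and 13.5-fold in KO LSCs. Hoxa9 had 0.219 of the level of Erg in WT LSCs and 1.10 times its level in KO LSCs.

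The rest of the cluster showed how far the signal extended. Of the other HOXA genes, Hoxa4 was at 0 and 0.579 FPKM (about 8.40 reads in KO LSCs) and Hoxa2 at 0 and 0.130 FPKM (about 2.13 reads), in WT and KO LSCs in turn. Hoxa3, Hoxa6, Hoxa11 and Hoxa13 were listed at 0 in both. Hoxa6, which lies between Hoxa5 and Hoxa7, is short, so that 3 reads would be worth 0.602 FPKM in WT LSCs and 0.43 FPKM in KO LSCs. The noncoding gene 2700086A05Rik (Hoxaas3 in the annotation) runs on the opposite strand over Hoxa5 and Hoxa7 and was at 0 and 0.305 FPKM. The library kit does not mark strand, so that reads of this gene and of the HOXA genes it overlaps cannot be told apart.

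**Figure D2:**
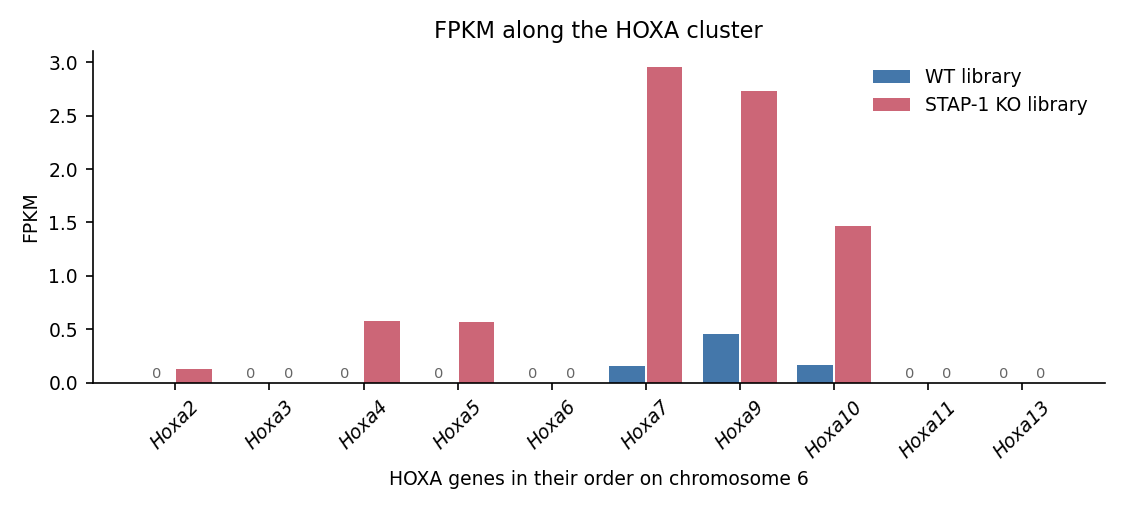
FPKM of HOXA genes in their order on chromosome 6, WT library in blue and STAP-1 KO library in red, with 0 written where a gene is listed at 0. Signal in KO LSCs is centred on Hoxa7, Hoxa9 and Hoxa10, with 0.579 FPKM or less at Hoxa2, Hoxa4 and Hoxa5.

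The other HOX clusters, which were surveyed after the values of the HOXA genes had been seen, were close to silent. Of the 39 HOX genes, 7 were above 0 in WT LSCs and 10 in KO LSCs, and 28 were at 0 in both. The HOXA cluster summed to 0.775 FPKM in WT LSCs and 8.44 FPKM in KO LSCs, and the HOXB cluster to 0.568 and 1.09 FPKM. Most of the HOXB sum was Hoxb2, at 0.375 and 0.874 FPKM from about 3.99 and 13 reads, whose interval for the ratio ran from 0.719 to 9.80. Hoxb4, a factor known to expand stem cells, had about 2 and 4 reads. The HOXC and HOXD clusters each had 1 gene above 0, with at most 2 reads in either library.

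MEIS1, the homeodomain partner of the HOXA proteins, was abundant in both libraries. Meis1 stood at 41.7 FPKM in WT LSCs and 36.8 FPKM in KO LSCs, a ratio of 0.881 (interval 0.81 to 0.960) and a log2 ratio of -0.18. Corrected for transcript length and GC content, its log2 ratio was 0.56 or -0.33, depending on the transcript length used. The other TALE cofactors were lower and uneven. Among the 6 of 8 HOX cofactor genes that could be compared, 1 was at least 2-fold higher and 2 at least 2-fold lower, with a median log2 ratio of -0.47 over those averaging at least 1 FPKM. Meis3 went from 2.72 FPKM in WT LSCs to 0.912 FPKM in KO LSCs and Pbx2 from 5.25 to 1.95 FPKM, while Pbx4 went from 2.58 to 6.54 FPKM, a log2 ratio of 1.31 that was 0.95 after correction for transcript length and GC content. Pbx3, the PBX protein most tied to HOXA9 in leukemia, stood at 7.94 and 4.24 FPKM. Its log2 ratio of -0.89 was -1.40 after the same correction, and the median of the list was then -0.66.

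The MLL complex (the histone methyltransferase that keeps HOXA genes active, with its partners) had 0 genes at least 2-fold higher and 3 at least 2-fold lower of 12 compared, a share near the 22.9% of all genes. The 3 were Aff4 (19 and 3.56 FPKM in WT and KO LSCs), Aff1 (10.8 and 2.77 FPKM) and Dot1l (4.5 and 1.27 FPKM), members or enzymes of the elongation machinery tied to MLL. The core subunit Wdr5 was at 40.1 and 68.1 FPKM and Mllt10 at 15.6 and 8.37 FPKM. The list had a median log2 ratio of -0.60, which became 0.13 once the length and GC content of the transcripts were taken into account, and of the 3 lower genes only Aff4 then stayed past 2-fold. Of 10 genes known as targets of HOXA9 and MEIS1, 3 were at least 2-fold higher and 2 at least 2-fold lower. The 3 were Sox4 (4.76 to 28.1 FPKM), Mef2c (4.02 to 13.8 FPKM) and Lmo2 (82.6 to 226.9 FPKM), and the 2 were Id2 (895.8 to 94.5 FPKM) and Trib2 (3.61 to 1.10 FPKM). The median of this list was -0.27 and was 0.55 after the same correction, so that the list had no stable direction.

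RUNX1 is the DNA binding subunit of core binding factor. Its gene, on the minus strand at chr16:92601466-92826149, had the lowest log2 ratio of the members before correction for transcript length and GC content. Runx1 stood at 22.8 FPKM in WT LSCs and 12.3 FPKM in KO LSCs, from about 965 and 728 reads. The STAP-1 KO level was 54.0% of the WT level (interval of the ratio 0.490 to 0.596; log2 ratio -0.88). This passed a 1.5-fold cut-off and not the 2-fold cut-off, and so corrected its log2 ratio was -0.40, beside -0.45 for Fli1. None of the 5 comparable genes among its relatives and partners was past 2-fold in either direction before that correction, after which the log2 ratio of Runx2 was 1.5 and the median of the list turned from -0.15 to 0.45. Cbfb, the partner subunit that stabilises RUNX1 on DNA, was at 61.1 FPKM in WT LSCs and 97.1 FPKM in KO LSCs. Runx3 was at 18.9 and 12.6 FPKM, Runx2 at 1.70 and 2.08 FPKM, and the corepressors Cbfa2t3 and Cbfa2t2 at 7.66 and 3.96 FPKM and at 7.02 and 6.32 FPKM. The remaining gene of the list, Runx1t1, was at 0.778 FPKM in WT LSCs and 0.0508 FPKM in KO LSCs. The latter value is below the floor of 0.1 FPKM, so Runx1t1 was not compared, and it was named after its values were seen.

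Of 8 genes known as RUNX1 targets, 4 were at least 2-fold higher and 3 at least 2-fold lower. The higher ones were the granule genes Mpo (248 FPKM in WT LSCs and 1973 FPKM in KO LSCs) and Elane (112 and 823.5 FPKM), the myeloid factor Cebpa (0.768 and 4.36 FPKM) and the receptor gene Csf1r (1.56 and 5.31 FPKM). The lower ones were the cytokine genes Csf2 (41.9 and 8.69 FPKM) and Il3 (1.66 and 0.447 FPKM) and the integrin gene Itga2b (123 and 32.5 FPKM). Mpo and Elane are also primary granule genes, a list of which 6 of 7 were at least 2-fold higher in KO LSCs and 1 at least 2-fold lower. The lower one, Srgn, went from 6691 to 1588 FPKM, and that list summed to 7370 and 6590 FPKM. The median log2 ratio of the RUNX1 targets was 0.92 and fell to 0.13 over those averaging at least 5 FPKM. Csf1r and Il3 were named after their values were seen.

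The ETS members differed little. Fli1, at chr9:32422204-32542861 on the minus strand, was the highest member in WT LSCs at 54.7 FPKM and stood at 48.6 FPKM in KO LSCs, a ratio of 0.889 (interval 0.826 to 0.958; log2 ratio -0.17). Erg, at chr16:95359169-95586593 on the minus strand, was at 2.06 and 2.48 FPKM from about 47.0 and 78.8 reads, a ratio of 1.20 whose interval of 0.829 to 1.77 held 1. Fli1 was thus 26.5-fold above its close relative Erg in WT LSCs and 19.6-fold above it in KO LSCs. Etv6, at chr6:134035700-134270158 on the plus strand, was at 31.9 FPKM in WT LSCs and 25.2 FPKM in KO LSCs, a ratio of 0.791 (interval 0.733 to 0.854; log2 ratio -0.34). Under the scaling as deposited these intervals leave out a ratio of 1 for Fli1 and Etv6. However, the log2 ratio of Fli1 was -0.07 when both libraries were scaled to the same total. That of Etv6 turned to 0.29 after correction for length and GC content. The differences are small beside those of Hoxa7, Hoxa9 and Hoxa10.

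Of 23 further ETS genes 15 could be compared, of which 0 were at least 2-fold higher and 7 at least 2-fold lower, beside 12.3% and 22.9% of all genes. After correction for length and GC content 4 of the 7 stayed past 2-fold, and the median log2 ratio over the 13 averaging at least 1 FPKM went from -1.02 to -0.27. The largest difference was in Spic, an ETS factor of iron-recycling macrophages, at 18.9 FPKM in WT LSCs and 0.542 FPKM in KO LSCs. Etv5 went from 24.5 to 5.37 FPKM, Elf4 from 17.9 to 4.01 FPKM, Etv3 from 9.39 to 3.78 FPKM and Elk4 from 7.66 to 3.09 FPKM. The corrected log2 ratio of Etv3 was -0.07, so that it is 1 of those that did not stay past 2-fold. Spi1 (listed as Sfpi1), the myeloid and B cell ETS factor PU.1, was at 84.5 and 92.7 FPKM and was named after its value was seen. Whether Fli1, Erg and Etv6 differed from the other ETS genes was not tested.

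Together with GATA2, TAL1, LYL1 and LMO2, the proteins RUNX1, ERG and FLI1 form a set of 7 factors that bind many blood stem cell enhancers jointly. The 4 partners were split. Gata2 went from 409 FPKM in WT LSCs to 55.2 FPKM in KO LSCs and Tal1 from 17.9 to 6.94 FPKM, Lmo2 went the other way from 82.6 to 226.9 FPKM, and Lyl1 was at 5.95 and 7.38 FPKM. Gata2 is also abundant in mast cells. Lmo2 is counted above among the HOXA9 and MEIS1 targets as well.

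Myb, at chr10:21124935-21160984 on the minus strand, codes for a factor that immature progenitors need for their growth. It stood at 54.6 FPKM in WT LSCs and 95.2 FPKM in KO LSCs, from about 1428 and 3474 reads. The level was 1.74-fold higher (interval 1.64 to 1.86; log2 ratio 0.80), which passed the 1.5-fold and not the 2-fold cut-off. Myb and Fli1 were level in WT LSCs, with a ratio of 1.0, and Myb was 1.96-fold above Fli1 in KO LSCs. Against Runx1, Myb was 2.40-fold higher in WT LSCs and 7.74-fold higher in KO LSCs. Its relative Mybl2, a cell cycle factor, was at 9.77 and 19.4 FPKM, while the MYB coactivators Ep300 and Crebbp went from 9.04 to 1.86 FPKM and from 5.15 to 1.65 FPKM. The last 2 have long transcripts. Over the 3 listed genes averaging at least 1 FPKM, the median moved from -1.59 to -0.06 with correction for length and GC content. That corrected median is the value of Crebbp, while Ep300 stayed just past 2-fold lower. The log2 ratio of Mybl2, short of 2-fold before, was 1.56 after the same correction.

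Of 8 genes known as MYB targets, 5 were at least 2-fold higher and 1 at least 2-fold lower, with a median log2 ratio of 1.25 (1.26 after correction for length and GC content, when 4 of the 5 stayed past 2-fold and Ccnb1 did not). The 5 were Mpo, Elane, Myc (59.3 FPKM in WT LSCs and 169.0 FPKM in KO LSCs), Lmo2 and Ccnb1, a mitotic cyclin at 57.8 and 120.0 FPKM that was named after its value was seen. The 1 was Kit, the gene of the receptor used in the sort, at 468 and 30.1 FPKM.

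Counted together, 9 of the 10 members had at least 0.1 FPKM in both libraries. Of these 3 (Hoxa7, Hoxa9 and Hoxa10) were at least 2-fold higher in KO LSCs and 0 at least 2-fold lower. Over all genes compared in the same way the shares were 12.3% and 22.9%. At a cut-off of 1.5-fold Myb joined the higher members, against 25.6% of all genes, and Runx1 was lower, against 32.8% of all genes. With a floor of 1 FPKM in both libraries no HOXA gene could be compared and 0 members were higher. The median log2 ratio over the 8 members averaging at least 1 FPKM was 0.04, beside -0.04 for all 10974 such genes. Hoxa7 and Hoxa9 enter this median only through the STAP-1 KO library, so that it supports nothing about the members.

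The order of the members by level changed mainly at its low end. In WT LSCs it ran Fli1, Myb, Meis1, Etv6, Runx1, Erg, Hoxa9, Hoxa10, Hoxa7 and Hoxa5. In KO LSCs it ran Myb, Fli1, Meis1, Etv6, Runx1, Hoxa7, Hoxa9, Erg, Hoxa10 and Hoxa5. The intervals of Fli1 and Myb overlapped in WT LSCs, as did those of Hoxa9, Hoxa10, Hoxa7 and Hoxa5 each with its neighbour. In KO LSCs those of Hoxa7, Hoxa9, Erg, Hoxa10 and Hoxa5 each overlapped that of the next gene. The other neighbours averaging at least 10 FPKM were apart by more than their counting error.

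**Figure D3:**
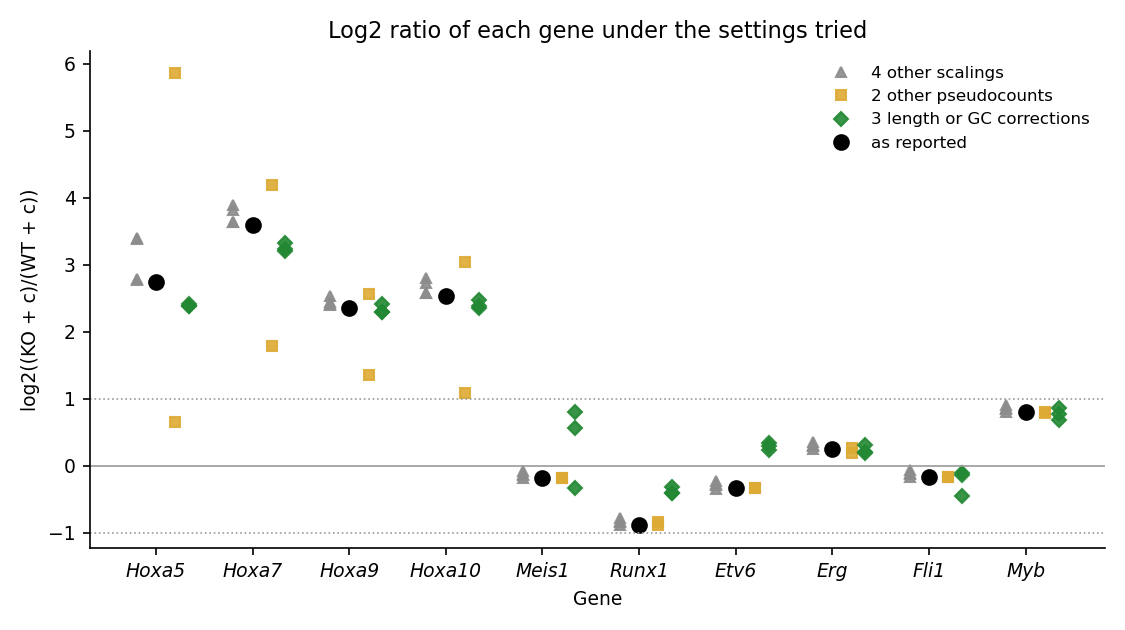
Log2 ratio of each gene, STAP-1 KO over WT, with c the pseudocount in FPKM. Black points are the values as reported, grey triangles 4 other scalings, yellow squares pseudocounts of 0.01 and 1 FPKM, and green diamonds 3 corrections for transcript length or GC content; dotted lines mark 2-fold. The HOXA genes stay above 0 in every setting and Runx1 below it, whereas Meis1 and Etv6 lie on both sides of 0.

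Transcript length moved with the ratios. Over the 10856 genes averaging at least 1 FPKM with a known length, the Spearman correlation across genes of the log2 ratio with the length of the longest transcript was -0.366, which describes these libraries, since genes are not replicates. Corrected for length and GC content, the log2 ratios were 3.21 for Hoxa7, 2.30 for Hoxa9, 2.38 for Hoxa10, -0.40 for Runx1, 0.20 for Erg, -0.45 for Fli1 and 0.68 for Myb. That of Etv6 turned from -0.34 to 0.29 and that of Meis1 from -0.18 to 0.56. The value of Meis1 hung on the annotation, as its longest transcript has 7553 bases and its longest RefSeq transcript 3346 bases, and with the latter length the corrected value was -0.33. The direction of Meis1 and Etv6 is therefore not settled, while that of the 4 HOXA genes, Runx1, Fli1 and Myb was kept in the 3 corrections. The other scalings and pseudocounts in the plot of log2 ratios move the genes too little, or in a way that cannot turn a sign, to bear on this. Erg kept its sign too, but its counting interval holds a ratio of 1.

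**Figure D4:**
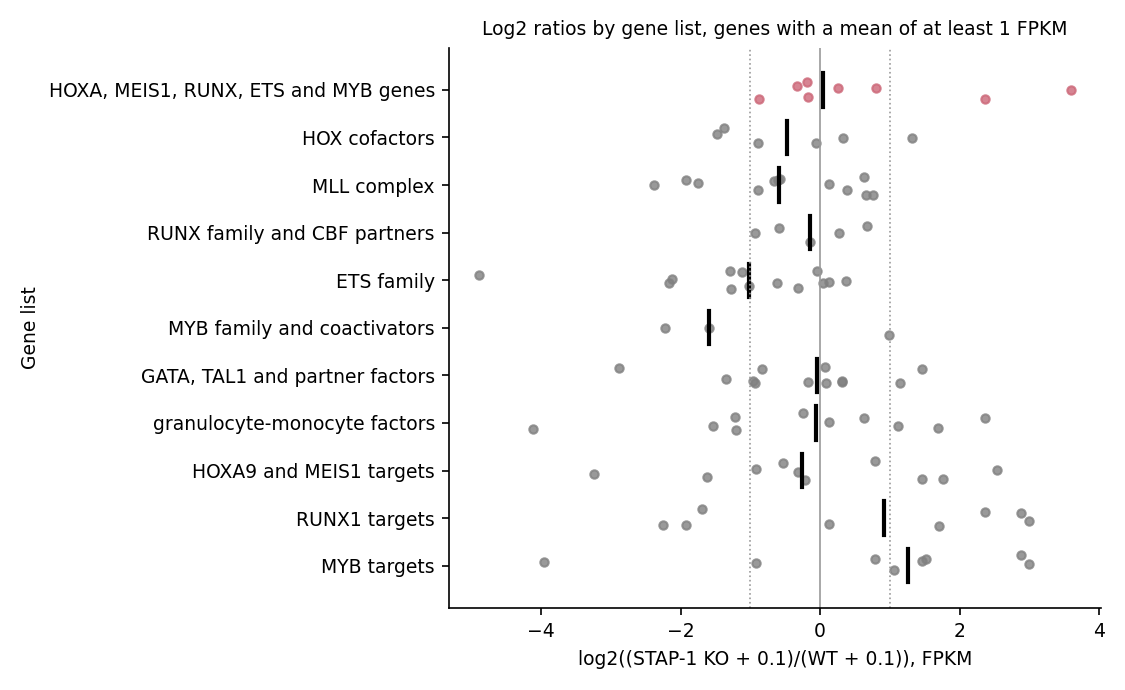
Log2 ratio, STAP-1 KO over WT with a pseudocount of 0.1 FPKM, of every gene averaging at least 1 FPKM in each list; black bars are medians, and dotted lines mark 2-fold. The members (red) have a median of 0.04, the other ETS genes one of -1.02, and the RUNX1 and MYB targets ones of 0.92 and 1.25, the former 0.13 over genes averaging at least 5 FPKM.

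The 2 libraries also differed in the markers of other cell types, which moves with all of the above. The 12 mast cell and basophil markers summed to 52300 FPKM in WT LSCs and 5360 FPKM in KO LSCs, and 11 of them were at least 2-fold lower. All 3 genes of sort antigens were at least 2-fold lower. Ly6a (Sca-1) was at 285 and 105.6 FPKM, Kit at 468 and 30.1 FPKM and Ptprc (CD45) at 107 and 38.2 FPKM. Kit is also 1 of the mast cell and basophil markers. Of the lineage antigens used to deplete mature cells, Cd8b1 was at 0 in both libraries, and the list summed to 3.06 and 2.78 FPKM. Of the B lymphoid markers 3 of 4 compared were at least 2-fold higher, 2 of the 3 also after correction for length and GC content. The list summed to 4.01 FPKM in WT LSCs and 20 FPKM in KO LSCs, mostly Cd79b at 3.10 and 17.8 FPKM. The B cell factors Pax5 and Ebf1 were at 0 in both. Of 8 T lymphoid markers 4 were at least 2-fold higher and 1 at least 2-fold lower, with Lck at 11.8 and 41.9 FPKM, and 2 of the 4 stayed past 2-fold after correction for length and GC content. Of 9 erythroid markers 1 was at least 2-fold higher and 5 at least 2-fold lower, of 8 megakaryocyte markers 1 and 3, and of 8 monocyte and macrophage markers 3 and 4. These lists summed to 25.4 and 69.7 FPKM, 2800 and 1370 FPKM, 220 and 140 FPKM and 229 and 239 FPKM. The higher erythroid marker was the globin gene Hba-a1, at 34.8 and 379.8 FPKM, while the globin gene Hba-a2 went from 772.5 to 15.9 FPKM. How well reads of these 2 genes can be told apart was not tested. After correction for length and GC content 2 of the 3 lower megakaryocyte and 2 of the 3 higher monocyte and macrophage markers stayed past 2-fold. Of 8 stem cell surface markers, 2 (Esam and Slamf1) were at least 2-fold higher and 0 at least 2-fold lower. The part of these differences in the levels of the HOXA genes, Runx1 and Myb was not tested, and fewer cells of a type and less RNA per cell cannot be told apart in bulk libraries.

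The members were set beside other lists of blood cell regulators. Of 12 GATA, TAL1 and partner factors 2 were at least 2-fold higher and 2 at least 2-fold lower, with a median log2 ratio of -0.05 and 1 of each 2 still past 2-fold after correction for length and GC content, and of 10 granulocyte-monocyte factors 3 were higher and 4 lower, with a median of -0.05 that was -0.72 over the genes averaging at least 5 FPKM. Of 10 other stem cell factors 2 were at least 2-fold higher and 4 at least 2-fold lower, 1 of the 4 also after correction for length and GC content. The median was 0.13 over the 8 averaging at least 1 FPKM and 0.63 over those averaging at least 5 FPKM. In that list Sox4 was higher as given above, and Nfix went from 3.27 FPKM in WT LSCs to 8.12 FPKM in KO LSCs. Ikzf1, the lymphoid factor Ikaros, went from 46.6 to 11.9 FPKM, Zfp521 from 3.23 to 1.01 FPKM and Mecom, a stem cell factor of the PRDM family, from 4.08 to 1.56 FPKM. Ikzf1 was the 1 that stayed past 2-fold, with a corrected log2 ratio of -1.48, beside -0.95 for Zfp521 and -0.81 for Mecom. With 1 library a genotype the difference between these lists was not tested.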

How the data were processed

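mRNA of LSCs of both genotypes was sequenced as 75-base single reads, 1 library each. The authors deposited FPKM values for 23284 symbols, made per the labels with TopHat2 2.0.13, Bowtie2 2.2.3, SAMtools 0.1.19 and Cufflinks 2.2.1 on mm10; the annotation, the scaling of the libraries and the read totals are not given in the sources used here. Labels and methods differ on the RNA kit (miRNeasy or RNeasy) and on the version of SAMtools. The methods name Cuffnorm for the FPKM values. Ratios were computed with scipy 1.17.1, pandas 2.3.3 and numpy 2.4.6 in Python 3.11.15, with a pseudocount of 0.1 FPKM for log2 ratios, a floor of 0.1 FPKM in both libraries and a cut-off of 2-fold. Of the symbols, 20911 matched GENCODE M21 as written, 1888 by an older symbol and 485 not at all. Effective depths came from low values of genes with 1 RefSeq-matched transcript, of which 42.7% (WT) and 44.8% (STAP-1 KO) lay within 0.01 of a whole read. They may include a scaling by the authors' tool. Estimated reads use the longest RefSeq-matched transcript. The length and GC correction subtracts the median of genes in the same of 10 length and 10 GC bins. Steps were tested on simulated data. Named were all members, Stap1, the HOXA genes, overlapping genes, the up to 5 genes of each pathway list that averaged at least 1 FPKM and had the largest absolute log2 ratio when 1 FPKM was added, and markers needed for levels; exceptions are marked, and some genes this rule selects are not reported here. The members and lists were all chosen with earlier results of these data known. Alternatives changed the scaling, pseudocount, floor, cut-off, genes included and correction.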

Additional observations from a re-analysis of the deposited data

How the results depend on the processing

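No paired analysis was possible because each genotype had 1 library, and no replicate could be left out. The count of members at least 2-fold higher was 3 and was 0 with a floor of 1 FPKM in both libraries, under which the HOXA genes could not be compared. The count of lower members was 0 and was 1 at a cut-off of 1.5-fold. The median log2 ratio of the members was 0.04. It was 0.43 with the correction for length and GC content, 0.55 with the correction for length alone, 0.53 with all 10 members, and 0.53 with Hoxa5 at its lower bound. Over the members averaging at least 5 FPKM it was -0.18. The length-only correction, the RefSeq lengths and the bound were added after seeing the data. Scaling to the same total moved the median of all genes from -0.04 to 0.06. Meis1 changed sign in 2 and Etv6 in 3 of the 9 settings, within ranges of -0.33 to 0.80 and -0.34 to 0.34. The log2 ratios of the low HOXA genes leaned on the pseudocount, with ranges of 0.65 to 5.86 for Hoxa5, 1.78 to 4.19 for Hoxa7, 1.36 to 2.57 for Hoxa9 and 1.08 to 3.04 for Hoxa10. Depth limits the HOXA genes most, at 15 estimated WT reads for the 4 genes.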

Other observations

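Prdm16, a stem cell factor of the PRDM family that was not among the genes the text was to name and was chosen after its values were seen, was at 0.0973 FPKM in WT LSCs, just below the floor of 0.1 FPKM, and at 1.18 FPKM in KO LSCs. Esam and Slamf1, surface markers of blood stem cells, were at 3.73 and 3.39 FPKM in WT LSCs and at 12.0 and 8.67 FPKM in KO LSCs, while Flt3, a receptor of multipotent progenitors, was at 7.62 and 6.54 FPKM.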
